A study of Mus musculus with 3 samples.

Results

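Collagens are the triple-helical proteins that give the extracellular matrix its fibrils, networks and filaments. Their genes were taken here as the autosomal protein-coding RefSeq genes whose symbol is Col, a number, the letter a and a number. This gave 42 of the 20661 autosomal protein-coding genes, spread over 14 of the 19 autosomes. DNA methylation was read at the 84 ends of these genes and, apart from the ends, along their bodies.

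The samples were mouse colon organoids, which are epithelial structures grown in Matrigel from crypts of the proximal colon. They came from male mice of about 40 days that were heterozygous for Braf V600E, an activating allele of a MAPK pathway kinase that stays silent until Cre recombinase acts on it (Braf+/LSL). Of 3 libraries, 1 came from organoids that had received the lentiviral backbone alone (EV), and 2 came from the line labelled BRAF3, in which lentiviral Cre had switched the allele on. After 5 months of culture came 3 further weeks of growth. EV and 1 Braf culture were kept in full medium with Wnt3a, R-Spondin, Noggin and EGF, and the other Braf culture in Base medium, from which the stem cell niche factors are missing; the Braf libraries are called full medium and Base medium below. Methylated fragments were enriched with methyl-CpG-binding domain (MBD) polypeptides and sequenced, so coverage rises with methylation and with the number of CpG sites. Each group held 1 library. No difference therefore has a replicate check, no p-value is given, and every comparison is between libraries.

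Fibrillar collagens such as type I build tensile fibrils, and are made mainly by fibroblasts. Type IV collagens form the network of the basement membrane on which the epithelium sits, type VI forms beaded filaments, type VII forms anchoring fibrils, and the FACIT collagens (fibril-associated collagens with interrupted triple helices) decorate the surface of fibrils. Transmembrane collagens include type XVII, a part of the hemidesmosomes of epithelial cells, and the multiplexins, types XV and XVIII, lie in basement membrane zones. Methylation of CpG-rich DNA at a transcription start is commonly found at silenced genes, whereas methylation of gene bodies is common in active genes.

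Total read overlaps were 12530155 in EV, 20914446 in full medium and 14850571 in Base medium. The Braf full medium library stood apart: 43.3% of its 200-bp bins held no read, against 87.2% in EV and 83.0% in Braf Base medium. Its median coverage over all gene ends was 0.0579, against 0.00913 and 0.00674, so a window with only scattered reads already lies higher in that library. Coverage is the number of reads over a bin times the authors' scaling step, averaged over the 11 bins that touch the 2 kb around an end. Methylated DNA does not measure expression, so the epithelial identity of the cultures was not checked; of 8 colon epithelium genes, only Cldn3 was called at an end in any comparison, and of 6 genes of fibroblasts and smooth muscle, Vim (0.0319, 0.294 and 0.283 at its low end in EV, full and Base medium) and Tagln (0.251, 0.610 and 0.226) were. Cldn3 had 0.0228, 0.125 and 0.00674 at its high end. Of 3 endothelial genes, Kdr was called gained in each comparison (0.0137, 0.200 and 0.478), and of 4 immune genes none was called. Over all genes, 8.55% gained and 1.13% were lost in full medium against EV. The shares were 6.19% and 2.61% in Base medium against EV, and 2.02% and 5.4% in Base against full medium. The marker lists are too short to set against these shares, and the part of their genes in the collagen results was not tested.

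Sequences of 33 of the 42 genes were matched in RefSeq's promoter table (GRCm38.p6, the assembly mm10 stands for); these 33 also have a strand, so their ends can be named as start end or far end. The other 9 genes are named by the low or high coordinate of the end. The 250 bases before the start are shown for 3 genes whose start end was called in both comparisons with EV and for 3 that were not called, with CG dinucleotides, the sites that can be methylated, in capitals. They are chr4:130047590-130047839 (Col16a1, forward strand), chr11:51289670-51289919 (Col23a1, forward), chr4:47207762-47208011 (Col15a1, forward), chr6:4505368-4505617 (Col1a2, forward), chr1:45311288-45311537 (Col3a1, forward) and chr8:11312827-11313076 (Col4a1, reverse), each 5′ to 3′ on its own strand.
Col16a1: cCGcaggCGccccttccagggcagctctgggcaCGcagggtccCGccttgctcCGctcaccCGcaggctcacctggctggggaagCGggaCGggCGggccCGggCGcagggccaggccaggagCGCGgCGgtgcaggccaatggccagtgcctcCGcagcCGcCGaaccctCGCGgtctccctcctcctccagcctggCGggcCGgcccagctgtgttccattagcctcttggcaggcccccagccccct
Col23a1: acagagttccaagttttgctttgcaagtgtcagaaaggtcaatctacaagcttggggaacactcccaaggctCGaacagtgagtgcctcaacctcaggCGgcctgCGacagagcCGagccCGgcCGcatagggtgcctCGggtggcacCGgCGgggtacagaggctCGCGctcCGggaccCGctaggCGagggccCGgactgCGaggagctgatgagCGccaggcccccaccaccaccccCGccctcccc
Col15a1: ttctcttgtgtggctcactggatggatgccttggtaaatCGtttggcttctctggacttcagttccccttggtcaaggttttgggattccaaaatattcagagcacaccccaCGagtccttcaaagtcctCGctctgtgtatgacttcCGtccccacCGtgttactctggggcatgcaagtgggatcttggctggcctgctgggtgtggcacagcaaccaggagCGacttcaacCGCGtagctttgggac
Col1a2: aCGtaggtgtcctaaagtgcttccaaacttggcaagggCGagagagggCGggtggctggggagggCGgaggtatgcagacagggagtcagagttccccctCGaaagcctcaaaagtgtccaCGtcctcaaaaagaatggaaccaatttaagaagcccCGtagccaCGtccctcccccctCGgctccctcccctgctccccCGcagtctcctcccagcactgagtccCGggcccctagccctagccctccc
Col3a1: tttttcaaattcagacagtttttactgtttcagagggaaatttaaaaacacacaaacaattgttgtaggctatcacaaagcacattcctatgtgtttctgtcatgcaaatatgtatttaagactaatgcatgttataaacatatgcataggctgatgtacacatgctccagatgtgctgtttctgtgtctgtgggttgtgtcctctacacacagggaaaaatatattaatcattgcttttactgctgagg
Col4a1: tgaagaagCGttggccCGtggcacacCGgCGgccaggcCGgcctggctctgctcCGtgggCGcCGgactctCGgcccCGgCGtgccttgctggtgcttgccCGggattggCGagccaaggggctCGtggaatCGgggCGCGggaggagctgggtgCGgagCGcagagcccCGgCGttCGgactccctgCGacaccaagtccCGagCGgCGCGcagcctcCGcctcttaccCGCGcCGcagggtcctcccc
The printed stretches hold 21 CG dinucleotides in Col16a1, 18 in Col23a1, 8 in Col15a1, 11 in Col1a2, 0 in Col3a1 and 31 in Col4a1. Over the full 300 bases of the table's promoters, Col4a1 held 37, more than 92.4% of the 20084 promoters of protein-coding genes, whose median was 14. The CpG-poor promoter of Col3a1 and the CpG-rich one of Col4a1 were thus both without a call.

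Gains are ends whose log2 coverage ratio reached 1 and losses those that reached -1, after adding a pseudocount of 0.0597 to both libraries and where the higher library had 0.119 or more. A gene was called if either end was. Such log2 ratios compress the differences of low windows, and folds are given as coverage ratios without a pseudocount. The 95% intervals of folds are exact (Clopper-Pearson) intervals from estimated read numbers and cover counting error only. The share of cells methylated at an end and the methylation within each cell cannot be told apart in such pooled DNA. A window without reads allows a coverage of up to 0.0340 in EV, the value of 3 reads, and a fold against it is given as a lower bound.

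Most collagen genes carried little methylated DNA at their ends, as did gene ends in general. Of the 84 ends, 67 lay under 0.119 in every library, and 36 held no read in EV. In EV, 9.52% of the collagen ends reached this minimum, against 11.9% of all gene ends. In full medium 16.7% did (16.5% of all) and in Base medium 14.3% (12.8% of all). Median coverage over the 84 ends was the same as over all gene ends in each library. Both ends were under the minimum in every library for 27 genes, among them Col1a2, Col3a1, Col4a1, Col7a1 and Col17a1. Only 6 ends were at or above it in all 3 libraries. The highest was the far end of Col6a2, a chain of type VI collagen, with 1.67 in EV, 1.43 in full medium and 1.28 in Base medium. The low end of Col9a3, a chain of the cartilage FACIT type IX, had 0.548, 0.989 and 0.886 in the same order. The far end of Col4a2 had 0.310, 0.298 and 0.283. None of these 3 ends was called in any comparison.

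Calls fell on 13 ends of 12 genes. In Braf full medium against EV, 6 collagen genes gained (14.3%, against 8.55% of all genes) and Col1a1 was lost (2.38%, against 1.13%). In Braf Base medium against EV, 7 gained (16.7%, against 6.19%) and 3 were lost (7.14%, against 2.61%). Both comparisons use the EV library. In Braf Base medium against Braf full medium, 0 gained (2.02% of all genes did) and 3 were lost (7.14%, against 5.4%). Scaling bears on the calls that involve full medium. With equal library totals, the counts gained and lost became 3 and 2 in full medium against EV, and 3 (Col9a2, Col19a1 and Col25a1) and 1 (Col11a2) in Base against full medium. With background subtracted they became 3 and 2, and 2 (Col9a2 and Col25a1) and 1 (Col16a1). The shares of all genes called under these settings are not given here. In both settings the gains in full medium were Col14a1, Col15a1 and Col16a1 and the losses Col1a1 and Col6a1, while the 7 gains and 3 losses in Base medium against EV were the same genes as above. The plot of coverage at the called ends shows the 3 libraries side by side.

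**Figure D1:**
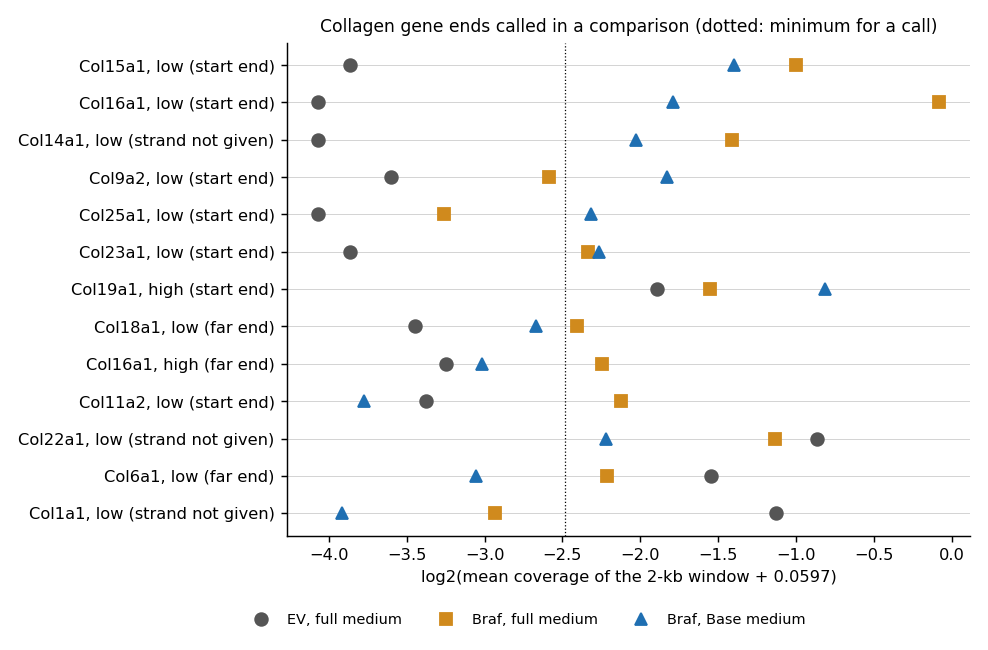
Mean coverage of the 2-kb window, as log2 with a pseudocount of 0.0597, at the 13 collagen gene ends called in any comparison, 1 point for each library; the dotted line is the minimum of 0.119 for a call. Both Braf libraries lie above EV at 9 of the 13 ends, and EV is the highest library at Col22a1, Col6a1 and Col1a1.

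The FACIT collagens held most of the gains in Base medium: 4 of 9 genes gained against EV (6.19% of all genes did) and Col22a1 was lost (2.61% of all genes were). Col16a1 encodes a collagen of fibrils and microfibrils in skin and cartilage. Its start end (gene at chr4:130047817-130099277, mm10) held no read in EV, had a coverage of 0.886 in full medium and 0.229 in Base medium. Against the value of 3 reads in EV it was thus at least 26.1-fold higher in Braf full medium and at least 6.73-fold higher in Braf Base medium. The exact 95% intervals, which use the reads of both libraries compared, had lower limits of 20.6 and 5.03. It was 3.87-fold lower in Base than in full medium (95% interval 2.51 to 6.29). That call ended with equal totals (log2 ratio -0.93) and stayed with background subtracted (-1.66). The reads lay over the start itself, with the top bin at 2.89 in full medium, centred 83 bp after the gene end, where Base medium had 0.741, so the printed promoter of Col16a1 lies inside the covered stretch. Its far end had 0.0456, 0.151 and 0.0640 and was called in full medium against EV with a log2 ratio at the limit. Relative to all autosomes, background in the surrounding 5 Mb was lower in both Braf libraries than in EV (log2 -0.32 in full medium and -0.39 in Base medium at the start end).

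Col14a1, a FACIT on the fibrils of tendon and skin, showed the same order of libraries. Its low end (gene at chr15:55307644-55520803) held no read in EV, 0.316 in full medium and 0.185 in Base medium, at least 9.30-fold and at least 5.44-fold higher by the same measure, with a lower 95% limit of 4.04 in Base medium. The coverage formed 1 peak within the window, with its top bin 256 bp inside the gene in both Braf libraries. Background coverage in the surrounding 5 Mb, relative to all autosomes, was also higher in full medium than in EV there (log2 0.40), and the log2 ratio of 2.66 became 2.25 with this divided out.

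In Col9a2 and Col19a1 the Base medium library was the highest. Col9a2, another chain of type IX collagen (chr4:121039566-121055325), had 0.0228 at its start end in EV, 0.107 in full medium and 0.222 in Base medium, 9.74-fold above EV (95% interval 2.50 to 86.3). In Base medium the reads formed a narrow peak of 0.889 in the top bin, 134 bp after the start, where full medium had 0.196. Col19a1, a FACIT of basement membrane zones, was covered in every library, with 0.210, 0.281 and 0.509 at its start end (gene at chr1:24257683-24587922). It was 2.42-fold higher in Base medium than in EV (95% interval 1.39 to 4.19). Around the start listed in the promoter table, which lies 485 bases inside the gene end, the 3 values were 0.589, 0.940 and 1.39; the top bin of Base medium, 5.78, lay 737 bp inside that start. The low end of Col22a1 (chr15:71795795-72150979), which encodes a collagen of the muscle-tendon junction, went the other way, from 0.488 in EV to 0.396 in full medium and 0.155 in Base medium. It was 3.15-fold lower in Base medium than in EV (95% interval 1.75 to 5.58) and 2.56-fold lower than in full medium (1.41 to 4.62). The call against full medium ended with equal totals (log2 ratio -0.37) and with background subtracted (-0.94).

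Of the 4 transmembrane collagens, 2 gained in Base medium against EV (6.19% of all genes did) and 1 in full medium (8.55% of all genes did). Col23a1, found on the surface of epithelial and other cells, had 0.00913 at its start end (gene at chr11:51289679-51583925) in EV, 0.138 in full medium and 0.148 in Base medium. Against EV it was 15.1-fold higher in full medium (95% interval 1.85 to 525) and 16.2-fold in Base medium (2.09 to 553). The EV value is only 2 read overlaps, under the value of 3 reads. The mean was alike in both Braf libraries but its spread was not: Base medium had a peak of 0.593 centred 621 bp inside the gene, where full medium had 0.294 among low coverage over most of the window. Col25a1, a neuronal collagen that also occurs in amyloid plaques, held no read at its start end in EV, 0.0445 in full medium and 0.141 in Base medium, at least 4.16-fold above EV (lower 95% limit 3.04). It lies at chr3:130180358-130599884, where background in the surrounding 5 Mb, relative to all autosomes, was higher in Base medium than in EV (log2 0.37). With this divided out, its log2 ratio moved from 1.75 to 1.38. The hemidesmosome gene Col17a1 had 0, 0.0624 and 0.0168 at its start end and Col13a1 0, 0.0935 and 0.00337, both without a call.

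The multiplexins Col15a1 and Col18a1 differed from each other. Col15a1, whose product bridges basement membranes and collagen fibrils, had 0.00913 at its start end (gene at chr4:47207655-47313167) in EV, 0.441 in full medium and 0.320 in Base medium. This was 48.3-fold higher in full medium (95% interval 6.61 to 1575) and 35.1-fold in Base medium (4.73 to 1135). The EV value is only 2 read overlaps and lies under 0.0340, the value of 3 reads. These folds are therefore not comparable in size with the lower bounds given for windows without reads. Its top bin in both Braf libraries, at 1.57 and 1.22, was centred 645 bp inside the gene, beyond the printed promoter. That is 288 bp after the listed start, which lies 357 bases inside the gene end. In the bins centred 45 and 245 bp inside the gene no library exceeded 0.0980. The bin centred at 445 bp, which touches the end of the printed stretch, had 0, 0.686 and 0.259. The far end of Col15a1 had 0.351, 0.263 and 0.286 and was not called. Col18a1, which also yields the fragment endostatin, had 0.0274, 0.0579 and 0.00674 at its start end, with no call. At its far end, whose window is shared with the high end of Slc19a1, it had 0.0319, 0.129 and 0.0977, and the call in full medium rested on a coverage close to the minimum. With equal totals or background subtracted, the log2 ratio of Col18a1 in full medium against EV was 0.65 or 0.67, under the limit. That of Col23a1 was 1.17 or 1.23, still past it, and its call ended because coverage fell under the minimum.

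**Figure D2:**
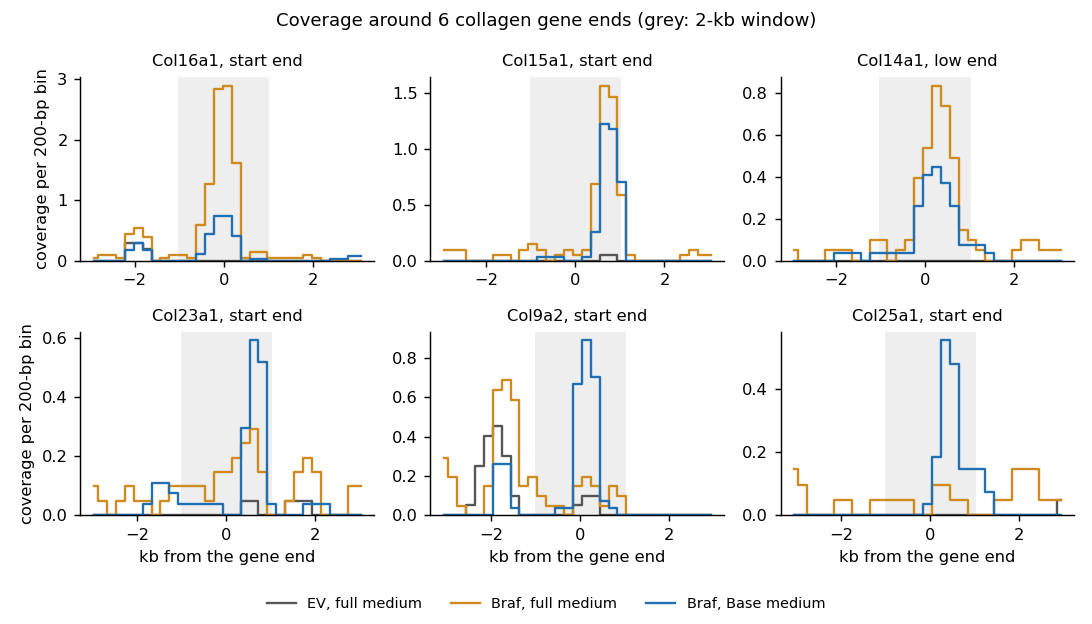
Coverage per 200-bp bin (vertical axes differ) against the distance in kb from the gene end, in the direction of transcription for the 5 start ends and by rising coordinate for Col14a1, for which no strand is given; lines are the 3 libraries and grey marks the window. The top bin of Col16a1 reaches 2.89 at the start, that of Col15a1 1.57 inside the gene, and Col9a2 and Col25a1 show peaks in the Base medium library at 0.889 and 0.556.

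Among the 11 fibrillar collagens, none gained in Base medium against EV, which is close to the 6.19% of all genes for so short a list. Col1a1, the main chain of type I collagen, fell at its low end (gene at chr11:94936224-94953042) from 0.397 in EV to 0.0713 in full medium and 0.00674 in Base medium. In full medium it was 5.57-fold lower than in EV (95% interval 2.30 to 14.0) and in Base medium 58.9-fold lower (7.98 to 1929). The Base medium value is only 2 read overlaps, so the size of that fold is poorly set. The EV reads formed 1 peak over the gene end, with 1.71 in the bin centred 76 bp inside it, where full medium had 0.147 and Base medium 0.0370. Its partner in the type I trimer, Col1a2, had 0.0137, 0.0935 and 0.0101 at its start end. Col3a1, which shares fibrils with type I, had 0.00913, 0.00891 and 0 there.

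Col11a2, a cartilage fibril chain in the MHC region (chr17:34038919-34066684), was called up in full medium, with 0.0365, 0.169 and 0.0135 at its start end, whose window is shared with the high end of Rxrb. It was 4.64-fold above EV in full medium (95% interval 1.45 to 27.1) and 12.6-fold lower in Base than in full medium (2.42 to 92.5). Reads were spread over the window, with no bin above 0.294. Its log2 ratio of full medium to EV was 0.82 with equal totals and 0.97 with background subtracted, under the limit; the part of that library's higher background in the result was not tested.

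The 4 network collagens of the basement membrane had no call at any end. Over all genes, 8.55% gained and 1.13% were lost in full medium against EV, and 6.19% and 2.61% in Base medium against EV. In Base against full medium 2.02% gained and 5.4% were lost, so no call among 4 genes is close to these shares. Col4a1 and Col4a2 start back to back, so their start windows hold the same reads, with 0.0274 in EV, 0.0579 in full medium and 0 in Base medium. In type VI collagen, Col6a1 was lost at its far end (gene at chr10:76708792-76726044), from 0.283 in EV to 0.156 in full medium and 0.0606 in Base medium, 4.67-fold lower in Base medium than in EV (95% interval 2.04 to 13.3). The far end of Col7a1, the anchoring fibril gene, had 0.0867, 0.0846 and 0.00674. Its log2 ratio of Base medium to EV was below -1, but the highest library lay under the minimum. Neither the 3 short chain collagens nor Col26a1 and Col28a1 had a called end, which is also close to the shares over all genes for so few members.

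Gains were counted at starts and far ends of the 33 genes with a strand. In Braf Base medium against EV, 6 of 33 start ends gained (18.2%, against 5.2% of all start ends) and 0 of 33 far ends (0.954% of all far ends). In Braf full medium against EV, 4 start ends (12.1%, against 6.56%) and 2 far ends (6.06%, against 2.56%) gained. Over all genes, too, gains were more frequent at starts than at far ends. No start end of these 33 genes was lost against EV in either comparison. Of all start ends, 0.717% were lost in full medium and 1.31% in Base medium. The low ends of Col1a1 and Col22a1, lost against EV, and of Col14a1, gained, are not counted here because no strand is given for them. Of the far ends 0 were lost in full medium (0.492% of all) and 1, that of Col6a1, in Base medium (1.42% of all). In Base against full medium, 0 start ends gained (1.8% of all) and 2 were lost (3.49% of all), while 0 far ends gained (0.128% of all) or were lost (2.29% of all). The median log2 ratio of the collagen start ends was 0.12 in Base medium against EV and 0.86 in full medium against EV, where all start ends had medians of 0 and 0.74.

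**Figure D3:**
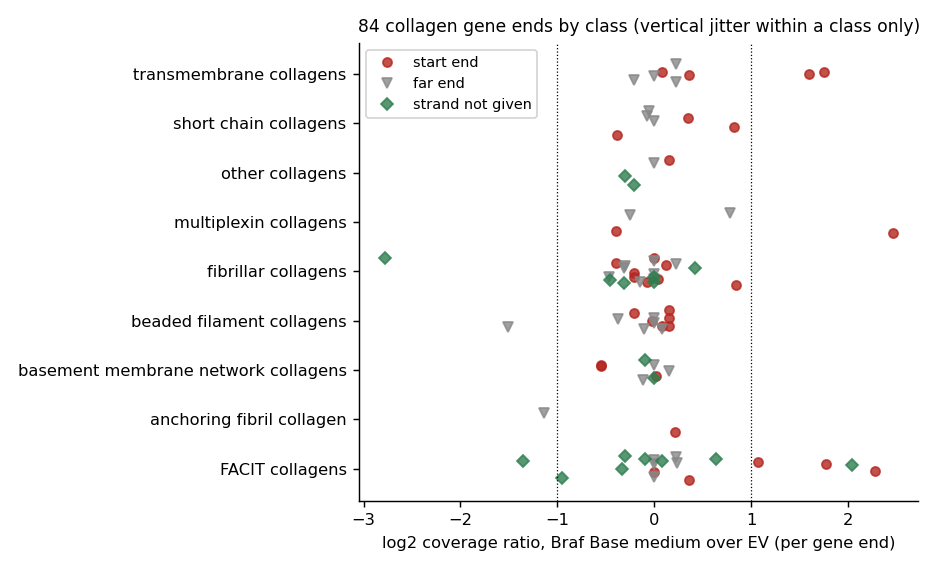
Log2 coverage ratio of Braf Base medium over EV for each of the 84 collagen gene ends (horizontal axis), by structural class, with start ends, far ends and ends of genes without a strand marked apart; dotted lines are the limits of -1 and 1, and calls also need the minimum coverage. Ends past 1 belong to FACIT, transmembrane and multiplexin genes; the far end of Col7a1 lies past -1 without a call.

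CpG content overlapped between the gained starts and the others. The promoter table lists 36 starts of the 33 genes, and 8 of them were gained against EV in a Braf library when the window was centred on the listed start. The 8 promoters held 1 to 24 CG dinucleotides in 300 bases, with a median of 16, and the other 28 held 0 to 37, with a median of 11. The lowest, with 1, was a start of Col9a1 that lies 17614 bases inside the gene; it was chosen for mention after its values were seen. Col5a1, with 34, Col4a2, with 33, and Col8a2, with 32, were not gained.

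**Figure D4:**
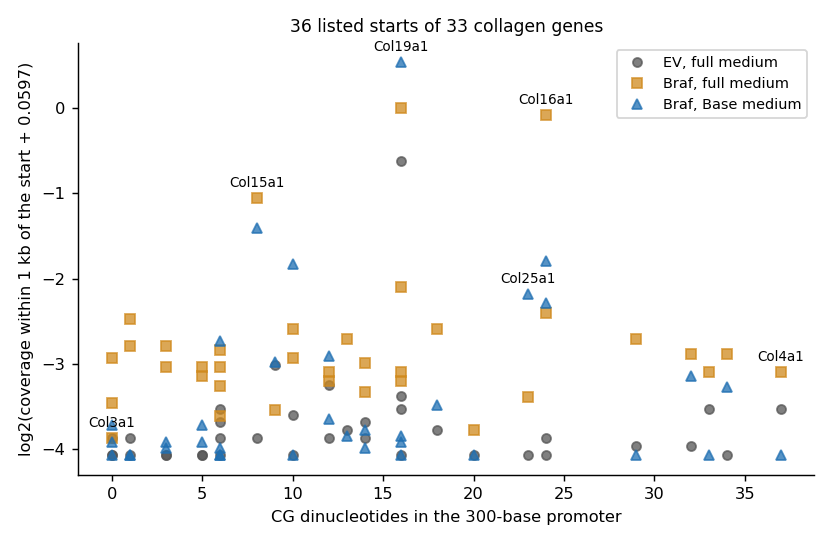
Coverage within 1 kb of each of the 36 listed starts (log2 with a pseudocount of 0.0597) against the number of CG dinucleotides in the 300-base promoter, with 1 point for each library. Col15a1 stands high at 8 and Col16a1 at 24, while Col4a1, with 37, stays low in every library.

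Gene bodies were read as 2379 tiles of 2 kb lying inside the genes and more than 1 kb from both ends. Median body coverage of the 42 genes was 0.0320 in EV, 0.0659 in full medium and 0.0201 in Base medium, against 0.0260, 0.0694 and 0.0232 over 18099 genes long enough to have a body. Body coverage was lower in Base medium than in EV in 34 of the 42 genes, and in 50.4% of all genes. The median log2 ratio of Base medium to EV was -0.08 for collagen bodies and 0.00 for all. These medians and the count of 34 genes are given for the deposited scaling only. Scaling to equal totals shifts log2 coverage of Base medium by 0.19 relative to EV. The body of Col1a1 was the most covered in each library (0.304, 0.336 and 0.252), followed by those of Col6a1 (0.261, 0.205 and 0.129) and Col6a2 (0.212, 0.197 and 0.135). In Col1a1 nearly all of it came from 1 tile, 14.8 kb from the low end, with 2.09 in EV, 2.13 in full medium and 1.83 in Base medium. The low end of Col1a1 and this tile of the same gene thus behaved differently between the libraries.

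Called tiles were mostly losses when the libraries of low background were compared. In Base medium against EV, 2 collagen tiles gained (0.0841%, against 0.248% of all body tiles) and 27 in 16 genes were lost (1.13%, against 0.923%). In full medium against EV, 29 gained (1.22%, against 1.22%) and 13 were lost (0.546%, against 0.271%). In Base against full medium, 0 gained (0.0789% of all did) and 39 were lost (1.64%, against 1.49%). With equal totals the split in full medium against EV turned to 2 gained and 37 lost, and that in Base against full medium to 14 gained and 1 lost. The shares of all body tiles under that setting are not given here. The tiles gained in full medium had a median coverage of only 0.132 there, and 26 of the 29 lay under 3 times the mean bin coverage. The 27 tiles lost in Base medium started from a median of 0.311 in EV.

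The most called tiles were in Col26a1 (6), Col17a1 and Col6a3 (5 each), and Col6a6 and Col22a1 (4 each). In Col26a1, an EMI-domain collagen, 5 tiles were lost in Base medium and 4 of these in full medium as well. The tile 69.2 kb from the low end had 0.627, 0.127 and 0.215, and the one at 95.2 kb had 0.231, 0.0735 and 0.00741. In Col17a1, 3 tiles were lost in Base medium, and 2 of these in full medium. The tile at chromosome 19, 47678001 to 47680000, had 0.497 in EV, 0.113 in full medium and 0.0111 in Base medium. Its neighbour had 0.176, 0.0980 and 0.0148, and the tile 23.0 kb from the start had 0.311, 0.0882 and 0.0593.

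In the type VI genes, called tiles were of 2 kinds, highest in EV or highest in full medium. Col6a3 had 0.653, 0.412 and 0.252 in the tile lost in Base medium, 31.0 kb from its start, and 4 further called tiles, highest in full medium, that were lost in Base against full medium, such as 0.341, 0.426 and 0.178. Col6a6 lost 3 tiles in Base medium against EV, the highest with 0.627, 0.363 and 0.182, and a further tile in full medium (0.151, 0.0392 and 0.0519). Col6a5, a neighbour of Col6a6 on chromosome 9, had 1.05, 0.407 and 0.267 in its most covered called tile and 0.151, 0.225 and 0.0556 in the other. In Col6a1 the tile next to the lost far end had 0.668, 0.289 and 0.226, and another had 0.0954, 0.274 and 0.0926. Col22a1 had 3 tiles that only rose to between 0.127 and 0.152 in full medium, and 1 that fell from 0.181 to 0.0147 in full medium and 0.0556 in Base medium. The 2 tiles gained in Base medium lay in Col18a1, with 0.0602, 0.142 and 0.219, and in Col25a1, with 0.125, 0.181 and 0.341.

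**Figure D5:**
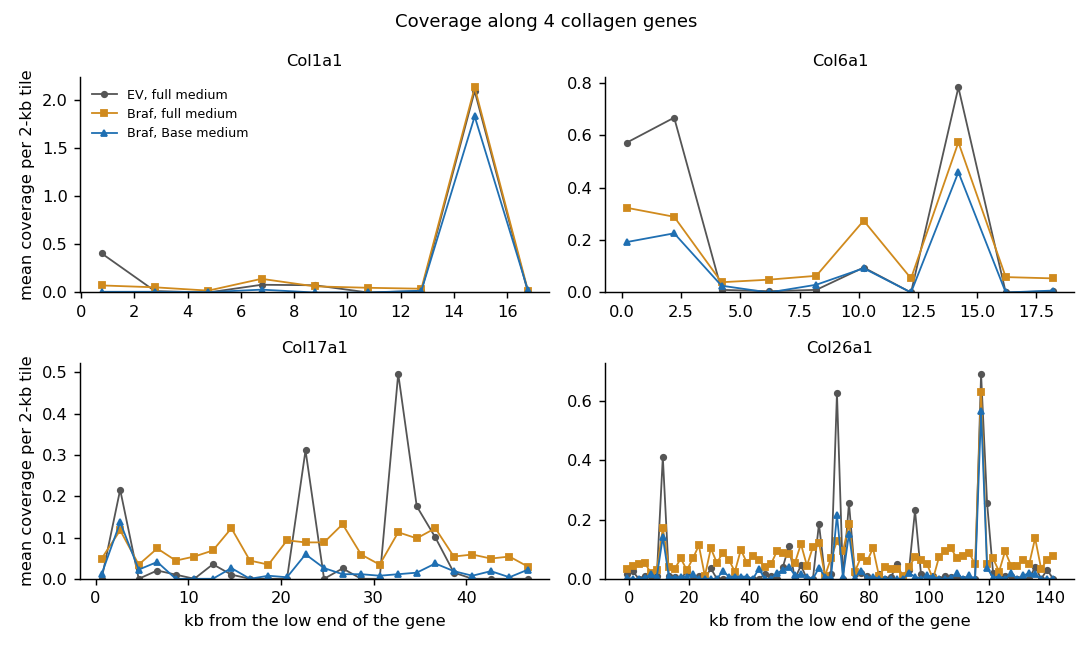
Mean coverage per 2-kb tile against the distance in kb from the low end of the gene, for Col1a1, Col6a1, Col17a1 and Col26a1 (vertical axes differ), with 1 line for each library. Col1a1 keeps a tile near 2 in all libraries, at 2.09, 2.13 and 1.83, while the tiles of Col17a1 at 0.497 and 0.311 in EV are low in both Braf libraries.

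Genes that act on collagens were read in the same way, from 6 lists of enzymes, receptors, proteases and matrix partners with 75 measured members. The lists were chosen with earlier results of these data known, so their shares beside those of all genes are not an independent check. In Braf full medium against EV 11 gained and 2 were lost (14.7% and 2.67%, against 8.55% and 1.13% of all genes), in Braf Base medium against EV 12 gained (16.0%, against 6.19%) and 3 were lost (2.61% of all genes were), and in Base against full medium 3 gained (2.02% of all genes did) and 6 were lost (5.4% of all genes were). Of 18 modification and folding genes, P4ha3, a subunit of prolyl 4-hydroxylase, gained at its low end, with 0.0411 in EV, 0.508 in full medium and 0.576 in Base medium. Serpinh1, the collagen chaperone Hsp47, gained at its high end, with 0.0502, 0.241 and 0.256. Both gained against EV in full medium (8.55% of all genes did) and in Base medium (6.19%). P3h1, a prolyl 3-hydroxylase, had 0.183, 0.196 and 0.0236 at its high end. It was lost in Base medium against EV (2.61% of all genes were) and against full medium (5.4%).

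Of 13 processing and crosslinking enzymes, 3 gained in full medium (8.55% of all genes did) and 4 in Base medium (6.19% of all genes did) against EV. Adamts3, a procollagen N-propeptidase, had 0.0456, 0.169 and 1.32 at its high end, and Tll1, a procollagen C-proteinase of the tolloid family, had 0.0593, 0.428 and 0.465. Loxl1, a crosslinking oxidase, had 0.0639, 0.272 and 0.360 at its high end, while Lox, the founding member of that family, gained in Base against full medium (0.566, 0.428 and 1.17). Of 8 collagen-degrading proteases, Mmp2 (0.00913, 0.178 and 0.438) and Mmp16 (0.114, 0.833 and 0.916) gained against EV in each Braf library. Of 10 receptors, Mrc2, which takes up collagen fragments, also did, with 0.0684, 0.290 and 0.350. Over all genes, 8.55% gained in full medium and 6.19% in Base medium against EV. The integrin gene Itga11 was lost in Base against full medium (0.0411, 0.120 and 0.0168), as were 5.4% of all genes. Lists of 8 and 10 genes are too short to set against these shares.

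The basement membrane partners of type IV collagen moved in both directions. Of 13 laminin and proteoglycan genes, 3 gained and 1 was lost in full medium (8.55% and 1.13% of all genes), and 3 gained and 2 were lost in Base medium (6.19% and 2.61% of all genes), against EV. Hspg2, which encodes perlecan, counts on both sides in Base medium. Its low end rose from 0.0821 in EV to 1.54 in full medium and 0.758 in Base medium, and its high end had 0.621, 0.374 and 0.0404. Lama2 rose at its high end (0.0228, 0.165 and 0.347), and Lamc3 fell at its low end (0.283, 0.111 and 0.0101). Lamb1 had 0.0502, 0.205 and 0.0707, and was called up in full medium and down from full to Base medium. Of 13 genes of fibril-associated proteoglycans and glycoproteins, none gained in any comparison, which is close to the shares over all genes (8.55%, 6.19% and 2.02%) for so short a list. Matn4 was lost in full medium (0.219, 0.0312 and 0.0943) and Comp in Base against full medium (0.310, 0.423 and 0.145).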

How the data were processed

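MBD-seq libraries of 3 organoid cultures were used, 1 for each group. Per the submitters' processing notes, Bowtie2 and mm10 were used; versions and the step that gave values per bin are not given in the sources used here. Deposited by the authors were log2 values for 12313737 bins of 200 bp on chromosomes 1 to 19. Raising 2 to each value gave a shared floor plus whole steps, within 0.001 of a step (0.0502 in EV, 0.0490 in Braf full medium, 0.0370 in Braf Base medium). Read overlaps are these whole numbers, and coverage is overlaps times the step. Isolated runs of 2 or 3 bins gave 2.49, 2.42 and 2.48 bins per read and an estimated 5041726, 8648828 and 5985362 reads, used for the intervals. These intervals assume independent molecules.

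Gene ends came from a RefSeq gene table of GRCm38.p6. All ends and all body tiles were computed and only the collagen ones and their partners are printed. Mean bin coverage over the 3 libraries served as pseudocount, and the minimum is 2 times that mean. The text names every collagen gene with a called end, 8 fixed genes, the 5 with most called tiles, and up to 2 called members of each partner list per comparison. The members and lists were chosen with earlier results of these data known. The calling step was tested on simulated data. Python 3.11.15, numpy 2.4.6, pandas 2.3.3 and scipy 1.17.1 were used. A total of 12 alternatives, among them scaling, background, pseudocount, minimum, threshold, window and tile size, were tried.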

Additional observations from a re-analysis of the deposited data

How the results depend on the processing

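With 1 library for each group, no replicate could be left out. No paired analysis was possible because each group holds 1 library. Of 105 log2 ratios at called collagen ends under 5 alternatives, 33 moved beyond their counting error; a change of sign is not expected at ends chosen for a large ratio. Scaling to equal totals shifts log2 coverage relative to EV by -0.70 in full medium and 0.19 in Base medium. The cause of the changes in counts below was not tested. These counts are of collagen genes and body tiles, without the shares of all genes and tiles under the same settings. They therefore do not show whether the differences from those shares stay. Against the 6 genes gained and 1 lost in full medium against EV, 3 gained and 2 were lost both with equal totals and with background subtracted; Col11a2 (log2 ratio 0.82 and 0.97), Col18a1 (0.65 and 0.67) and Col23a1 (1.17 and 1.23, under the minimum coverage) were no longer called and Col6a1 was lost. The 7 gains and 3 losses in Base medium against EV were the same genes under both settings and with local dosage divided out.

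In Base against full medium, where 0 genes gained and 3 were lost, 3 gained and 1 was lost with equal totals, 2 gained and 1 was lost with background subtracted, and 2 gained with local dosage divided out. Body tiles turned in balance there and in full medium against EV. With equal totals, tiles gained and lost were 2 and 37 in full medium against EV (29 and 13 as reported) and 14 and 1 in Base against full medium (0 and 39 as reported). With background subtracted they were 1 and 23, and 5 and 3. With local dosage divided out, 1 tile gained in Base against full medium.

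With a pseudocount 4 times as large, 3 genes gained in full medium and 1 in Base medium against EV, 1 gene was lost in Base medium against EV and 1 in Base against full medium. Tiles gained and lost were then 0 and 2 in full medium against EV and 0 and 6 in Base medium against EV, and 0 were lost in Base against full medium. With a pseudocount of 0.25 times the size, 1 gene and 1 tile gained in Base against full medium and 4 tiles gained in Base medium against EV. With a minimum of 5 times the mean, 3 genes gained in full medium and 2 in Base medium against EV. Tiles gained were then 0 in full medium and 1 in Base medium against EV, and tiles lost were 15 in Base medium against EV and 1 in Base against full medium. With no minimum, 20 genes and 393 tiles gained in full medium against EV, and 14 genes and 389 tiles were lost in Base against full medium.

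With a log2 threshold of 1.5, tiles gained and lost were 12 and 4 in full medium against EV and 0 and 9 in Base medium against EV, and 12 were lost in Base against full medium. With windows of 500 bp to each side, 4 genes gained and 1 was lost in Base medium against EV and 2 gained in Base against full medium. With 2 kb to each side, 3 genes gained in each comparison with EV. With start ends only, which leaves out the 9 genes without a strand, Col1a1 and Col22a1 among them, 0 genes were lost in full medium or Base medium against EV. Tiles of 1 kb are more numerous: 129 gained and 28 were lost in full medium against EV, 3 and 151 in Base against full medium, and 4 and 54 in Base medium against EV. Depth limits the low ends: a window without reads in EV allows up to 0.0340, so changes below that level were not detectable.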
